A study of Mus musculus with 8 samples.

Results

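The transcripts described here come from the serine/threonine signalling kinase genes of mouse round spermatids with and without TDRD6. Members were taken by gene symbol from the 3 deposited tables, as every transcript whose gene name begins with Mapk, Map2k, Map3k, Map4k, Stk, Csnk, Camk, Nek, Mast or Mark and fits that family's numbering, and Stk31 was left out. The rule found 182 entries, which are 169 distinct transcripts of 89 genes, out of 19077 distinct transcripts of 12200 genes in all. Of the 89 genes, 13 encode no protein kinase but a scaffold, an inhibitor, a regulatory subunit, an interacting protein or a pseudokinase. The rule used no measured value.

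RNA was sequenced from testis cells of 4 Tdrd6-/- and 4 Tdrd6+/- mice on a C57BL/6 background at postnatal day 26. TDRD6 is a tudor domain protein of the chromatoid body, an RNA-rich granule of round spermatids. Both genotypes carry at least 1 targeted allele, in which the human surface marker hCD4 is placed in frame at the Tdrd6 start codon, so the control is a heterozygote and not a wild type animal. Cells in which this locus is active were isolated with magnetic beads against hCD4, which gives a population enriched in round spermatids that still holds spermatocytes. Each table gives 1 FPKM per genotype, a level scaled to transcript length and library size, in which the 4 animals are already combined. No value per animal was used here. The differences below therefore have no replicate error and no test, and they are described by size only. The reads behind a single FPKM are unknown, so that its precision is unknown too. A transcript is called higher or lower where its FPKM in Tdrd6-/- and in Tdrd6+/- differ by at least 1.5-fold and the mean of both is at least 1.

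Serine/threonine kinases transfer phosphate from ATP to proteins and act in chains. In a MAP kinase cascade a MAP4 kinase or a small GTPase activates a MAP3 kinase, which phosphorylates a MAP2 kinase, which in turn activates a MAP kinase such as ERK, JNK or p38. Casein kinases 1 and 2 are largely constitutive enzymes with many substrates. Calmodulin-dependent kinases read calcium, NEK kinases act on centrosomes and cilia, and MARK and MAST kinases bind or modify the microtubule system. Several have forms made mainly in the testis. Mice without Csnk2a2, the alpha prime catalytic subunit of casein kinase 2, are infertile with round-headed sperm, and the Camk4 locus makes a short calmodulin-binding protein, calspermin, from an internal promoter in spermatids.

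The level of Tdrd6 itself follows the labels. Its most abundant transcript was at 40.6 FPKM in Tdrd6+/- and 1.29 FPKM in Tdrd6-/-, 31.5-fold lower. The preparations held round spermatid markers at high levels, but 5 of 10 such markers were lower by the fold used, and the late spermatid genes stood far apart. Tnp1, a transition protein that replaces histones, was at 6466 FPKM in Tdrd6+/- and 1840 FPKM in Tdrd6-/-, and Prm1, a protamine of the condensing nucleus, was at 5521 and 1162 FPKM. Summed over the 10 genes of that list the level was 20669 FPKM in Tdrd6+/- and 5844 FPKM in Tdrd6-/-. The transition protein genes Tnp1 and Tnp2 and the protamine genes Prm1 and Prm2 carried this sum. The other lower marker was Izumo1 at 91.2 and 58.1 FPKM, and Acrv1, Acr, Spaca1, Spata16 and Catsper3 lay within 1.5-fold. Acr, the acrosomal protease acrosin, was at 228 and 213 FPKM. Summed over 7 markers of pachytene and diplotene spermatocytes the level was 8611 and 7080 FPKM, a sum carried by Ldhc, the lactate dehydrogenase of germ cells. None of these 7 was past the fold, but 5 lay above 0 and the median log2 ratio was 0.30. The part of these markers in the kinase values was not tested. Markers of cells outside the germ line were low: 3 of 6 Sertoli markers were listed, with Cldn11 as the highest at 3.57 and 3.52 FPKM, all 5 Leydig markers were listed, with Insl3 as the highest at 19.6 and 16.7 FPKM, and 1 of 5 blood markers was listed, Lyz2 at 0.497 and 0.770 FPKM. The part of the lower late spermatid genes in the kinase values was not tested. In such bulk samples fewer cells of a stage and less RNA per cell cannot be told apart, and how the libraries were scaled to each other is not stated.

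Several results below turn on which transcript of a gene is meant. The starts of the annotated reading frames tell the 2 Csnk2a2 transcripts apart, but only some of the Map2k7 transcripts. The first 30 coding bases are shown 5′ to 3′ from GENCODE M1 on mm9, with the start codon in capitals. Csnk2a2 lies on the minus strand of chromosome 8 and Map2k7 on the plus strand of the same chromosome.
Csnk2a2 ENSMUST00000056919: ATGcccggcccggccgcgggcagtcgggcc
Csnk2a2 ENSMUST00000093266: ATGatagatcaccaacaaaaaaagctccga
Map2k7 ENSMUST00000110999: ATGgcggcgtcctccctggagcagaagctg
Map2k7 ENSMUST00000110996: ATGctaactcctttcatgcccctggttttt
Map2k7 ENSMUST00000110995: ATGctggggctcccatcaaccttgttcaca
In Csnk2a2 the first 30 coding bases of ENSMUST00000093266 recur in the longer transcript from coding base 490, in frame, at codon 164. Both Csnk2a2 frames end with the same 30 bases, but the shorter frame is 102 bases shorter than the stretch from that codon to the stop. In Map2k7 the frame of ENSMUST00000110995 begins at codon 46 of the frame of ENSMUST00000110996, and the start of ENSMUST00000110999 is shared with ENSMUST00000110998 and ENSMUST00000062686. The first 30 coding bases of ENSMUST00000110994 are the same as those of ENSMUST00000110995, so the start does not separate them.

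Of the 169 member transcripts, 14 had a mean FPKM of 50 or more, 41 lay from 10 up to 50, 71 lay from 1 up to 10, and 43 were under 1. No member was listed at 0 in either genotype. Casein kinase genes dominated the levels, with the regulatory subunit gene Csnk2b and the interacting protein gene Csnka2ip counted among them. The 25 transcripts of these 9 genes held 52.4% of the summed member FPKM in Tdrd6+/- and 44.9% in Tdrd6-/-. Csnk2b, which is no kinase, alone gave 836 of 1685 FPKM in Tdrd6+/- and 662 of 1327 FPKM in Tdrd6-/-. The 35 transcripts of the Stk group held 17.6% and 21.7% of the summed member FPKM. The most abundant member was Csnk2b ENSMUST00000172765, from the gene of the regulatory beta subunit of casein kinase 2, at 655 FPKM in Tdrd6+/- and 521 FPKM in Tdrd6-/-. The other transcripts in the first 10 were Csnk1a1 ENSMUST00000115246 at 307 and 257 FPKM, Csnk1g2 ENSMUST00000085435 at 169 and 92.5 FPKM, and Csnk2b ENSMUST00000173114 at 143 and 109 FPKM. They were followed by Nek2 ENSMUST00000027931 at 108 and 131 FPKM, Map2k2 ENSMUST00000105331 at 104 and 86.6 FPKM, and Csnk1d ENSMUST00000096557 at 105 and 84.7 FPKM. Stk33 ENSMUST00000121748 at 81.4 and 96.3 FPKM, Stk30 ENSMUST00000070565 at 91.9 and 79.1 FPKM, and Stk25 ENSMUST00000027498 at 70.7 and 93.0 FPKM closed the list. Of these 10 only the Csnk1g2 transcript was past 1.5-fold.

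**Figure D1:**
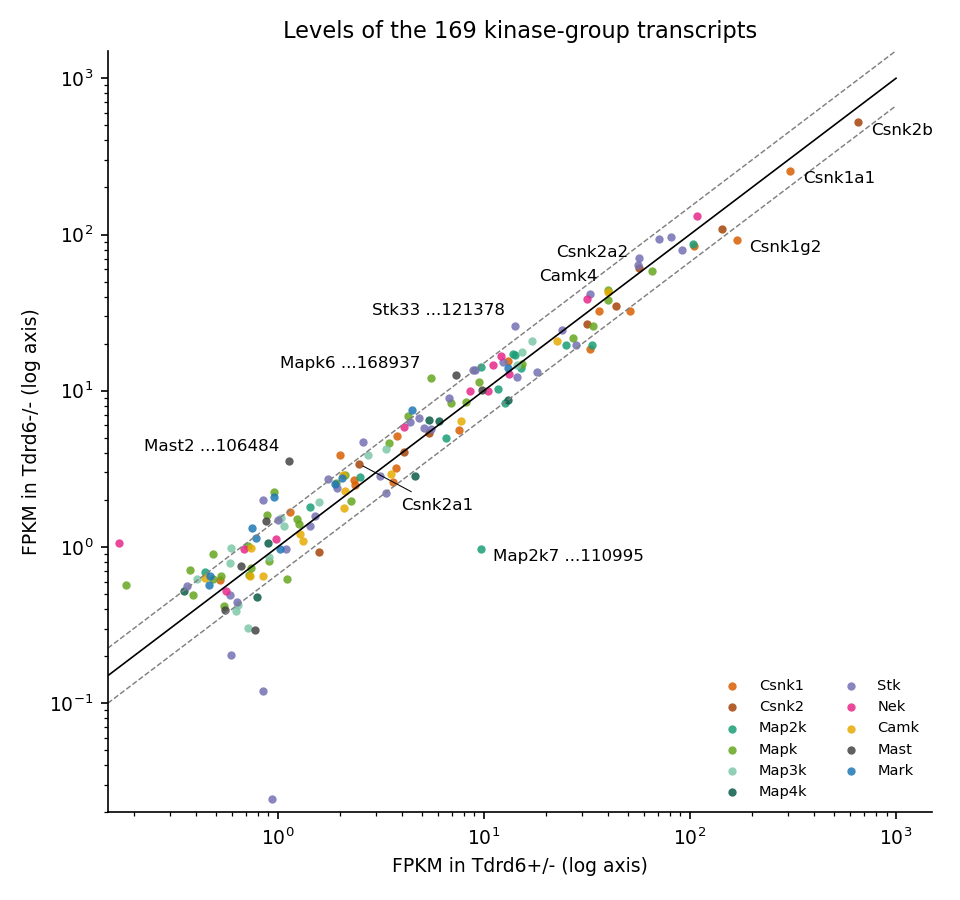
Level of each of the 169 member transcripts, with FPKM in Tdrd6+/- on the x axis and FPKM in Tdrd6-/- on the y axis, both logarithmic. Each point is 1 transcript coloured by family, the solid line marks equal levels and the dashed lines mark 1.5-fold. Most transcripts follow the solid line up to Csnk2b at 655 and 521 FPKM, and Map2k7 ENSMUST00000110995 (9.66 and 0.976 FPKM) lies far below it.

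In 2 pairs of related genes, 1 of each pair was far above the other, and both pairs were chosen with the values known. FPKM summed over the listed transcripts of Csnk2a2 was 62.1 in Tdrd6+/- and 66.8 in Tdrd6-/-, against 2.49 and 3.40 for Csnk2a1, the alpha subunit found in most tissues, a ratio of 25.0 and 19.7. Map2k2 (MEK2) stood 52.3 and 39.8 times above Map2k1 (MEK1). The more abundant gene was the same in both genotypes in each of these 2 pairs.

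Of the 126 members with a mean FPKM of at least 1, 16 (12.7%) were higher in Tdrd6-/- by 1.5-fold, against 8.59% of all 14883 transcripts past the same minimum. Lower by 1.5-fold were 8 members (6.35%), against 9.14% of all transcripts. Of the 16 higher members, 6 were under 1 FPKM in Tdrd6+/- and passed the minimum only through their level in Tdrd6-/-, namely Mapk10 ENSMUST00000060871, Mapk8ip3 ENSMUST00000121787, Mark2 ENSMUST00000025921, Mark3 ENSMUST00000075281, Mast3 ENSMUST00000037986 and Stk38 ENSMUST00000119274. Of the 8 lower members, 2 passed only through Tdrd6+/-, Map2k7 ENSMUST00000110995 and Csnk2b ENSMUST00000174346. Over all transcripts 290 of the 1278 higher and 225 of the 1361 lower did so, 22.7% and 16.5%. At a mean FPKM of at least 5, 6 of 75 members were higher and 6 lower, against 4.59% and 8.15% of all transcripts. The median log2 ratio of Tdrd6-/- over Tdrd6+/- was 0.15 over the members and 0.00 over all transcripts, and 77 members lay above 0 and 49 below. When FPKM was instead summed over the listed transcripts of a gene, a choice made after the values were seen, only 4 of 78 genes were higher and 2 were lower, 5.13% and 2.56%. Over all genes these shares were 5.07% and 6.88%. The 4 higher genes were Stk38l (1.63-fold), Nek1 (1.62-fold), Mark2 (1.56-fold) and Stk17b (1.55-fold), and the 2 lower genes were Csnk1g2 (1.79-fold) and Map4k1 (1.52-fold). Of the 24 transcripts called, 16 were not the most abundant transcript of their gene. The called transcripts nearest to the limit were Map2k5 ENSMUST00000113945 (1.51-fold lower) and Stk4 ENSMUST00000137866 (1.54-fold higher). Just short of the limit and not called were Stk35 ENSMUST00000082067 (9.09 and 13.6 FPKM) and Stk30 ENSMUST00000177224 (3.34 and 2.23 FPKM).

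The tables sort transcripts by the length of their 3' UTR, a short class of at most 350 nt, a long class of more than 1500 nt, and a medium class between them. Of the 45 members with a short 3' UTR past the minimum, 7 were higher and 6 lower, or 15.6% and 13.3%, against 7.1% and 15.1% of all short transcripts. Of 40 medium members 7 were higher and 2 lower, or 17.5% and 5.0%, against 8.66% and 6.33%. Of 31 long members 2 were higher and 0 lower, or 6.45% and 0%, against 10.8% and 3.09%. Short members had a median log2 ratio of -0.09, medium members 0.18 and long members 0.28, where all transcripts of these classes had -0.17, 0.03 and 0.20. The order of the 3 medians was the same in the members as in all transcripts, but without the genes that are no kinase the short median was 0.05. A further 10 members past the minimum were listed in 2 tables and had a median of -0.04.

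The ratio also went with the length of the whole transcript. Among the members, the median log2 ratio was -0.25 up to 1500 nt (24 transcripts), -0.09 from 1501 to 2500 nt (33 transcripts), 0.11 from 2501 to 4000 nt (33 transcripts) and 0.35 over 4000 nt (35 transcripts). The same medians over all transcripts were -0.27, -0.04, 0.12 and 0.30. Over 4000 nt, 6 members were higher and 0 lower, where 18.0% of all transcripts of that length were higher and 2.19% lower. Across the 125 members with an annotated length the rank correlation of log2 ratio with length was 0.43, and across all 14743 such transcripts it was 0.47. With mean FPKM the rank correlation was -0.35 in the members and -0.22 in all transcripts. With annotated 3' UTR length it was 0.28 in the members and 0.31 in the 14715 transcripts that have one. The parts of length and level in the ratio were not tested. These points share the same libraries, and no test was made. Within the short class, the 34 members of up to 2500 nt had a median of -0.22 and the 10 members over 2500 nt had a median of 0.30, against -0.23 and 0.23 for all short transcripts of these lengths. The Mast2 transcripts are an example, with an annotated 3' UTR of 52 or 53 nt on transcripts of 5292 to 5723 nt.

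**Figure D2:**
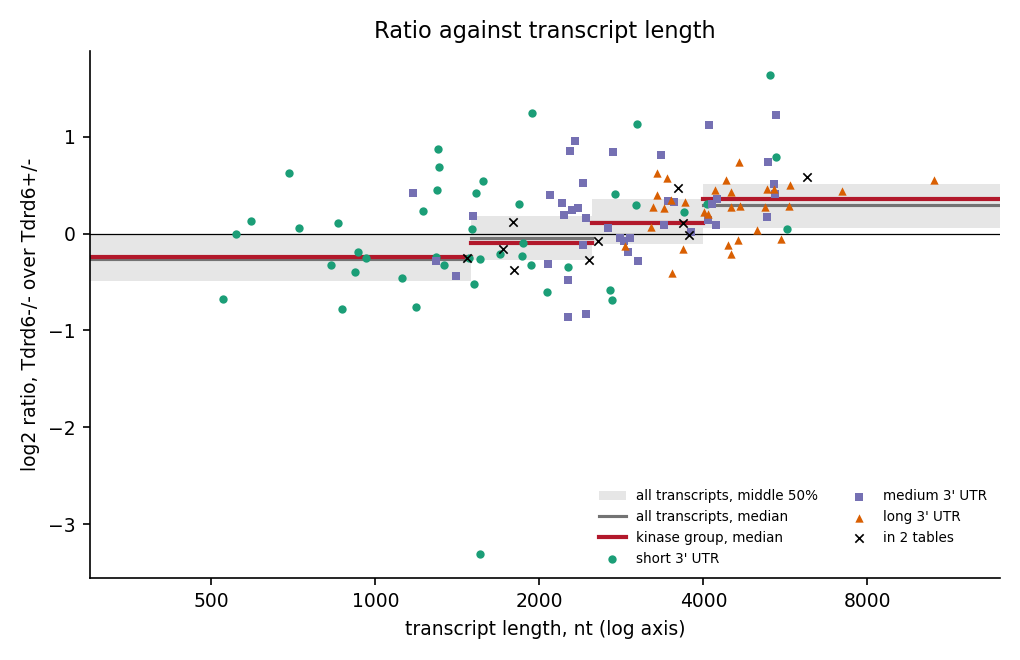
Log2 ratio of Tdrd6-/- over Tdrd6+/- on the y axis against transcript length in nt on a logarithmic x axis, for the 125 members with an annotated length and a mean FPKM of at least 1. Symbols give the 3' UTR class, red lines the member median in 4 length ranges, and grey lines and bands the median and interquartile range of all transcripts. The member medians step up from -0.25 to 0.35 and stay within the grey band in every range.

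MAP3 kinases open the cascade. Over all transcripts 8.59% were higher and 9.14% lower by 1.5-fold, and 7447 of 14883 had a log2 ratio above 0. All 8 MAP3 kinase transcripts past the minimum had a ratio above 0, with a median of 0.31 and none past 1.5-fold. Of these 8, Map3k4 ENSMUST00000115691 is annotated on the other strand from the 2 further Map3k4 transcripts and is counted here by its symbol alone. Their median length was 4023.5 nt. The most abundant was Map3k12, the dual leucine zipper kinase DLK, at 17.1 FPKM in Tdrd6+/- and 20.7 FPKM in Tdrd6-/-. The mixed lineage kinase Map3k10 was at 15.3 and 17.8 FPKM and Map3k11 at 14.4 and 14.6 FPKM. The remaining 7 of 15 MAP3 kinase transcripts were under a mean FPKM of 1, among them those of Map3k5 (ASK1), Map3k6 and Map3k13.

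MAP2 kinases had a median log2 ratio of -0.19 over 13 transcripts, with 0 higher and 3 lower, where 9.14% of all transcripts were lower, and a median length of 2198 nt. Of the 3 lower, 2 belong to Map2k7, and with 1 transcript per gene the median was -0.0534. Map2k5, the kinase of ERK5, had ENSMUST00000034920 at 25.0 FPKM in Tdrd6+/- and 19.7 FPKM in Tdrd6-/-, and ENSMUST00000113945 at 12.7 and 8.39 FPKM. Map2k3, which activates p38, was at 13.9 and 17.2 FPKM. Map2k7 encodes the kinase MKK7, which activates JNK. Its ENSMUST00000110995 had the largest ratio of any member past the minimum, 9.66 FPKM in Tdrd6+/- and 0.976 FPKM in Tdrd6-/-, 9.90-fold lower.

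The 6 listed transcripts of Map2k7 did not move as a group. ENSMUST00000110996, whose annotated start lies 4524 nt inside the gene, was at 33.4 and 19.7 FPKM, and ENSMUST00000110998 was at 6.55 and 4.95 FPKM. In the other direction, ENSMUST00000110994 was at 14.1 and 17.0 FPKM and ENSMUST00000110999 at 9.71 and 14.2 FPKM, neither past 1.5-fold. ENSMUST00000110995 and ENSMUST00000110999 share the last 30 coding bases and an annotated 3' UTR of 138 nt and differ at the start, as the sequences above show. Summed, these 2 transcripts were at 19.4 FPKM in Tdrd6+/- and 15.1 FPKM in Tdrd6-/-, 1.28-fold lower. The whole gene was at 73.9 and 57.4 FPKM, 1.29-fold lower, and at 64.2 and 56.4 FPKM without ENSMUST00000110995. Cuffdiff divides reads among overlapping transcripts, and the same locus in the files also holds Gm14378, so the division between these transcripts is uncertain.

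**Figure D3:**
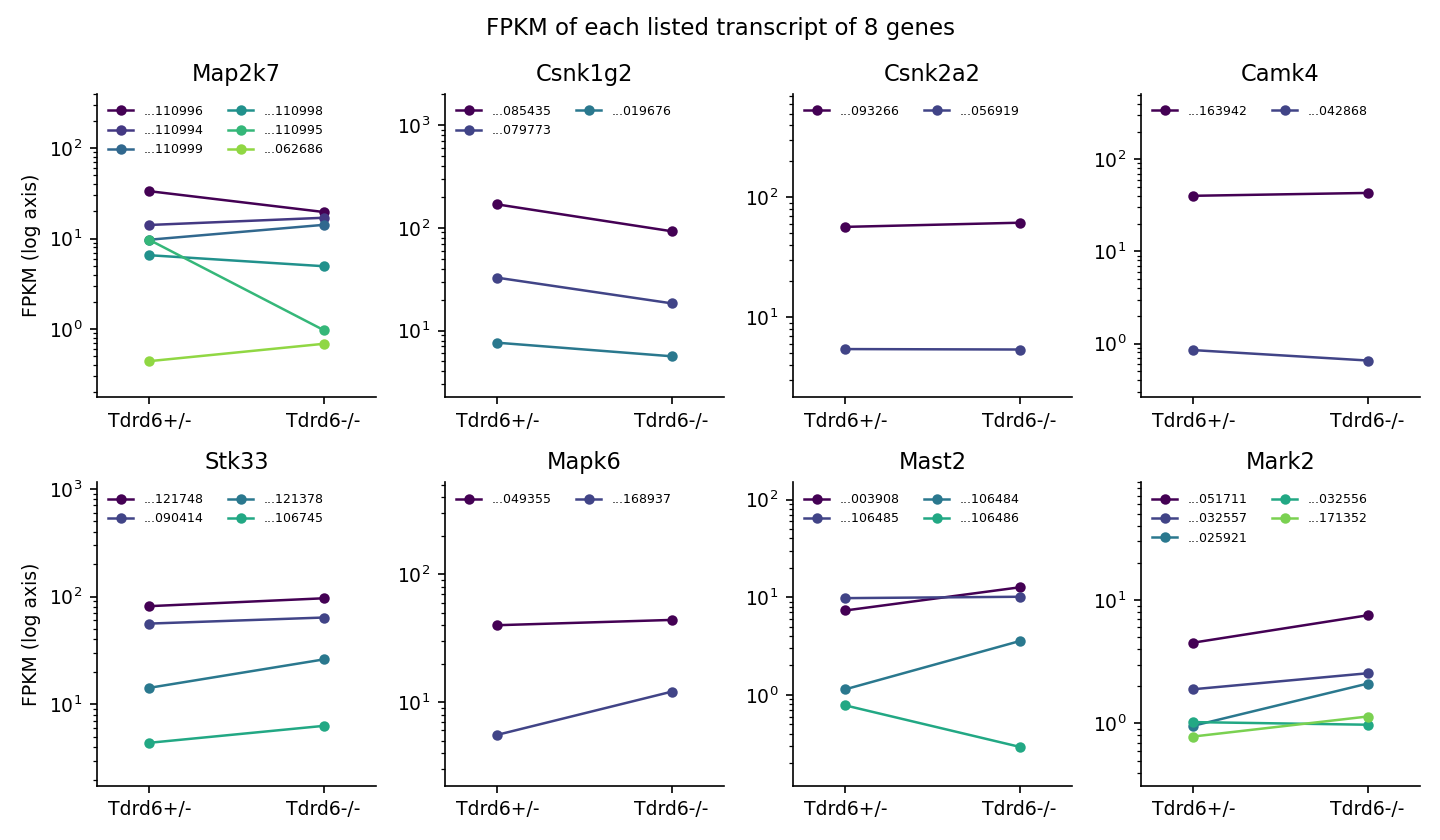
FPKM on a logarithmic y axis of each listed transcript of 8 genes in Tdrd6+/- (left) and Tdrd6-/- (right); each line is 1 transcript, named by the last 6 digits of its identifier. In Map2k7 the line of ENSMUST00000110995 drops from 9.66 to 0.976 FPKM while ENSMUST00000110999 goes from 9.71 to 14.2 FPKM, whereas all 3 lines of Csnk1g2 slope down together and those of Csnk2a2 are nearly level.

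MAP kinases themselves had 3 transcripts higher and 0 lower among 13 past the minimum, against 8.59% and 9.14% of all transcripts, and their scaffolds and interactors had 1 higher among 6. Of the 3 higher, the Mapk10 transcript passed the minimum only through Tdrd6-/-. The 7 transcripts of the JNK genes Mapk8, Mapk9 and Mapk10 past the minimum all had log2 ratios above 0, from 0.26 to 0.84. Of these, Mapk8 (JNK1) ENSMUST00000111943 was at 4.30 FPKM in Tdrd6+/- and 6.94 FPKM in Tdrd6-/-, and Mapk10 (JNK3) ENSMUST00000060871 was at 0.892 and 1.60 FPKM. The ratios of Mapk3 (ERK1) lay below 0 in both of its transcripts, ENSMUST00000091328 at 65.6 and 58.6 FPKM and ENSMUST00000057669 at 33.8 and 26.0 FPKM, neither past 1.5-fold. Mapk15, an atypical ERK, was at 27.2 and 21.7 FPKM. Mapk14, the p38 alpha kinase, was low at 0.484 and 0.620 FPKM.

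Mapk6 encodes the atypical kinase ERK3 and had 2 transcripts with the same annotated coding length of 2160 nt. ENSMUST00000049355 was at 40.0 FPKM in Tdrd6+/- and 44.0 FPKM in Tdrd6-/-, and ENSMUST00000168937, which starts 646 nt further in, was at 5.55 and 12.1 FPKM, 2.17-fold higher. The share of the second in the gene was 12.2% and 21.5%. The gene as a whole was 1.23-fold higher. The 2 transcripts have 6 exons each and annotated 3' UTRs of 1148 and 1150 nt, so the division of reads between them is uncertain. Among the JNK scaffold genes, JIP1 and JIP2 were nearly level. Mapk8ip2 (JIP2) was at 39.9 and 38.3 FPKM and Mapk8ip1 (JIP1) ENSMUST00000050312 at 15.3 and 14.9 FPKM. Mapk8ip3 (JIP3) had 1 transcript past the limit, ENSMUST00000121787 at 0.956 and 2.24 FPKM, while its ENSMUST00000115228 was at 1.11 and 0.622 FPKM. Mapk8ip3 shares its locus in the files with Eme2.

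MAP4 kinases stand upstream of the cascade and had 4 transcripts past the minimum, with a median log2 ratio of -0.25 that turned to 0.09 with 1 transcript per gene. Both transcripts of Map4k1, known as the hematopoietic kinase HPK1, had ratios below 0, ENSMUST00000085835 at 13.1 FPKM in Tdrd6+/- and 8.73 FPKM in Tdrd6-/- and ENSMUST00000169338 at 4.61 and 2.87 FPKM. The second was 1.61-fold lower and the first lay just short of the limit. Map4k3 at 6.06 and 6.44 FPKM and Map4k5 at 5.40 and 6.51 FPKM lay within 1.5-fold.

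Casein kinase 1 had a median log2 ratio of -0.23 over 15 transcripts, with 1 higher and 3 lower, where 8.59% and 9.14% of all transcripts were so. Csnk1g2, a membrane-anchored gamma isoform, had log2 ratios below 0 in each of its 3 transcripts, of which 2 were past 1.5-fold. ENSMUST00000085435 was at 169 FPKM in Tdrd6+/- and 92.5 FPKM in Tdrd6-/- (1.82-fold lower), ENSMUST00000079773 at 32.7 and 18.4 FPKM (1.78-fold lower), and ENSMUST00000019676 at 7.61 and 5.62 FPKM. The gene summed to 209 and 117 FPKM. Shares of the 3 transcripts were close to each other in both genotypes, with 80.7% and 79.4% for the first. This gene differed from Map2k7 in that all its transcripts shifted in 1 direction, and all 3 lie in the medium class. The other gamma genes were less abundant, with ratios above 0 and within 1.5-fold, Csnk1g1 ENSMUST00000034949 at 3.79 and 5.14 FPKM and Csnk1g3 at 1.14 and 1.68 FPKM.

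Csnk1a1, the alpha isoform known for phosphorylating beta-catenin, had 8 listed transcripts, the most of any member gene. Its main transcript ENSMUST00000115246 was 79.6% and 80.4% of the gene. ENSMUST00000164253, annotated at 526 nt, was at 51.4 FPKM in Tdrd6+/- and 32.2 FPKM in Tdrd6-/-, 1.60-fold lower. ENSMUST00000165721 was at 2.01 and 3.90 FPKM, 1.94-fold higher. Csnk1d, the delta isoform, was at 105 and 84.7 FPKM in its medium class transcript ENSMUST00000096557 and 36.1 and 32.3 FPKM in its long class transcript ENSMUST00000018274.

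Casein kinase 2 is a tetramer of catalytic alpha or alpha prime and regulatory beta subunits. The 3 transcripts of the catalytic genes had log2 ratios from -0.01 to 0.45, while all 6 transcripts of Csnk2b and Csnka2ip had ratios below 0. Csnk2a2 ENSMUST00000093266 was at 56.7 FPKM in Tdrd6+/- and 61.4 FPKM in Tdrd6-/-, and ENSMUST00000056919, the full-length form with 350 codons, was at 5.41 and 5.36 FPKM. The transcript with the annotated frame of 153 codons thus held 91.3% and 92.0% of the listed Csnk2a2 level. These 2 transcripts span chr8:97971879-98012727 and chr8:97969996-98012720 on mm9. They share 9 identical exons, and all but 7 of the 1788 exonic bases of the shorter one lie in exons of the longer. Cuffdiff divides reads among overlapping transcripts, so these shares of the Csnk2a2 level are uncertain. Csnk2a1 was at 2.49 and 3.40 FPKM. Csnk2b ENSMUST00000172765 held 78.4% and 78.8% of the listed Csnk2b level and has an annotated coding length of 559 nt, or 186 whole codons. Csnk2b ENSMUST00000173114, with the complete frame of 215 codons, was at 143 and 109 FPKM. The shorter-framed ENSMUST00000174346 was at 1.59 and 0.925 FPKM, 1.71-fold lower. Csnka2ip, which encodes a protein that binds the alpha prime subunit, was at 43.8 and 35.0 FPKM. Csnk2b summed over its 5 transcripts was 13.5 times Csnk2a2 in Tdrd6+/- and 9.90 times in Tdrd6-/-.

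No transcript of the Camk group passed 1.5-fold among 9 past the minimum, where 8.59% of all transcripts were higher and 9.14% lower. Of the 9, 6 are from kinase genes. The median log2 ratio was -0.11, or 0.00 without the inhibitors and the pseudokinase. Camk4 was carried almost wholly by ENSMUST00000163942, a transcript of 854 nt in 3 exons, at 40.1 FPKM in Tdrd6+/- and 43.1 FPKM in Tdrd6-/-. The full-length ENSMUST00000042868, of 12331 nt with 469 codons, was at 0.849 and 0.655 FPKM. The short transcript begins 94.6% of the way along the gene, and its 492 coding bases all lie within the coding bases of the long one. It was 47.3 times the long one in Tdrd6+/- and 65.9 times in Tdrd6-/-. The annotation does not say whether this transcript encodes calspermin. Exons of 2310026I22Rik on the opposite strand overlap those of Camk4. The other kinases of the family were low. Camk1g was at 3.56 and 2.95 FPKM, Camk1d ENSMUST00000114987 at 2.11 and 1.79 FPKM, Camk2g ENSMUST00000100837 at 2.08 and 2.89 FPKM, and Camkk2 ENSMUST00000047365, the kinase that activates CaMKI and CaMKIV, at 1.29 and 1.21 FPKM. The CaMKII inhibitor genes Camk2n1 at 22.6 and 20.9 FPKM and Camk2n2 at 7.80 and 6.42 FPKM were above Camk2g, whose 3 transcripts summed to 4.95 and 6.16 FPKM. No transcript of Camk1, Camk2d or Camkk1 was among the members.

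The Stk group holds kinases of several kinds. It had 5 transcripts higher and 0 lower among 29 past the minimum, with a median log2 ratio of 0.31, where 8.59% and 9.14% of all transcripts were higher and lower. The group counts also hold Stk11ip, Stk19 and Stk40, which were not taken as kinases. Stk33, which mice need to build the sperm tail, was the most abundant gene of the group at 156 FPKM in Tdrd6+/- and 193 FPKM in Tdrd6-/- summed over 4 transcripts. All 4 had log2 ratios above 0, and ENSMUST00000121378, the one with a short 3' UTR, was past the limit at 14.2 and 26.1 FPKM. Stk36, a kinase of the axonemal central pair, was at 12.4 and 15.3 FPKM in ENSMUST00000087186. Stk30, also called MOK, had ratios below 0 in all 4 of its transcripts, with a gene sum of 124 and 101 FPKM.

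Stk25, Stk39, Stk24 and Stk10 belong to the wider Ste20 group. Stk39 (SPAK), which controls cation chloride cotransporters, was at 56.4 FPKM in Tdrd6+/- and 70.9 FPKM in Tdrd6-/-, and Stk25 was 1.32-fold higher. Stk10 was level at 23.9 and 24.5 FPKM and Stk24 at 1.52 and 1.58 FPKM. Stk40, a pseudokinase, was at 32.9 and 41.9 FPKM. Stk17b, a death-associated kinase, was at 8.82 and 13.6 FPKM, 1.55-fold higher.

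The Hippo kinases and the NDR kinases that they phosphorylate had log2 ratios mostly above 0. Stk4 (MST1) ENSMUST00000018353 was at 4.83 FPKM in Tdrd6+/- and 6.66 FPKM in Tdrd6-/-, and the short ENSMUST00000137866 was at 1.76 and 2.71 FPKM. Stk3 (MST2) was at 1.10 and 0.965 FPKM. Stk38 (NDR1) had ENSMUST00000009138 at 6.79 and 8.95 FPKM and ENSMUST00000119274 at 0.845 and 2.00 FPKM, the latter 2.37-fold higher, and both have an annotated coding length of 1395 nt. Stk38l (NDR2) ENSMUST00000111644 was at 2.60 and 4.71 FPKM, 1.81-fold higher. Of 6 Hippo and NDR transcripts past the minimum 5 had a log2 ratio above 0, where 7447 of all 14883 did. Higher by 1.5-fold were 3 of them, against 8.59% of all transcripts. Stk38 ENSMUST00000119274 passed the minimum only through Tdrd6-/-, and neither it nor Stk4 ENSMUST00000137866 was the main transcript of its gene. Stk11, the tumour suppressor LKB1, was close to level in ENSMUST00000152592 at 5.52 and 5.73 FPKM and within 1.5-fold in ENSMUST00000105370 at 14.5 and 12.2 FPKM.

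MAST and MARK kinases are linked to microtubules, and the median log2 ratio was 0.76 over 4 MAST and 0.43 over 7 MARK transcripts past the minimum. Mast3, Mark2 and Mark3 each had a transcript that passed only through Tdrd6-/-, and with no minimum the MAST median was 0.17 over 7. Mast2, first described as a kinase of the spermatid manchette, had 4 listed transcripts. ENSMUST00000106485 was level at 9.80 FPKM in Tdrd6+/- and 10.1 FPKM in Tdrd6-/-, ENSMUST00000003908 was at 7.32 and 12.6 FPKM, and ENSMUST00000106484 was at 1.14 and 3.55 FPKM, 3.11-fold higher. The low ENSMUST00000106486 went from 0.780 to 0.294 FPKM. The gene summed to 19.0 and 26.6 FPKM, 1.40-fold higher. Mast3 ENSMUST00000037986 was at 0.880 and 1.47 FPKM. Mark2, a kinase that detaches tau-type proteins from microtubules, had ENSMUST00000051711 at 4.51 and 7.50 FPKM, ENSMUST00000032557 at 1.89 and 2.55 FPKM and ENSMUST00000025921 at 0.958 FPKM in Tdrd6+/-, 2.19-fold higher in Tdrd6-/-. Mark3 ENSMUST00000084953 was level at 13.1 and 14.0 FPKM, and only its minor ENSMUST00000075281 was past the limit at 0.751 and 1.31 FPKM. The median length was 5368.5 nt for MAST and 3388 nt for MARK.

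NEK kinases had 0 transcripts past 1.5-fold among 9 past the minimum, where 8.59% and 9.14% of all transcripts were higher and lower. Of the 9, 7 lay above 0, and the median log2 ratio was 0.27. Nek2, which splits centrosomes, was the most abundant, with ENSMUST00000027931 at 108 FPKM in Tdrd6+/- and 131 FPKM in Tdrd6-/- and ENSMUST00000171468 at 31.5 and 38.8 FPKM. Its transcripts kept their shares, 77.4% and 77.1% for the first. Nek1 ENSMUST00000034065 was at 4.09 and 5.85 FPKM, and ENSMUST00000172204, under the minimum, was at 0.171 and 1.06 FPKM. Nek8 was at 13.3 and 12.9 FPKM, Nek11 at 10.5 and 9.99 FPKM, and Nek9 at 12.1 and 16.6 FPKM.

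**Figure D4:**
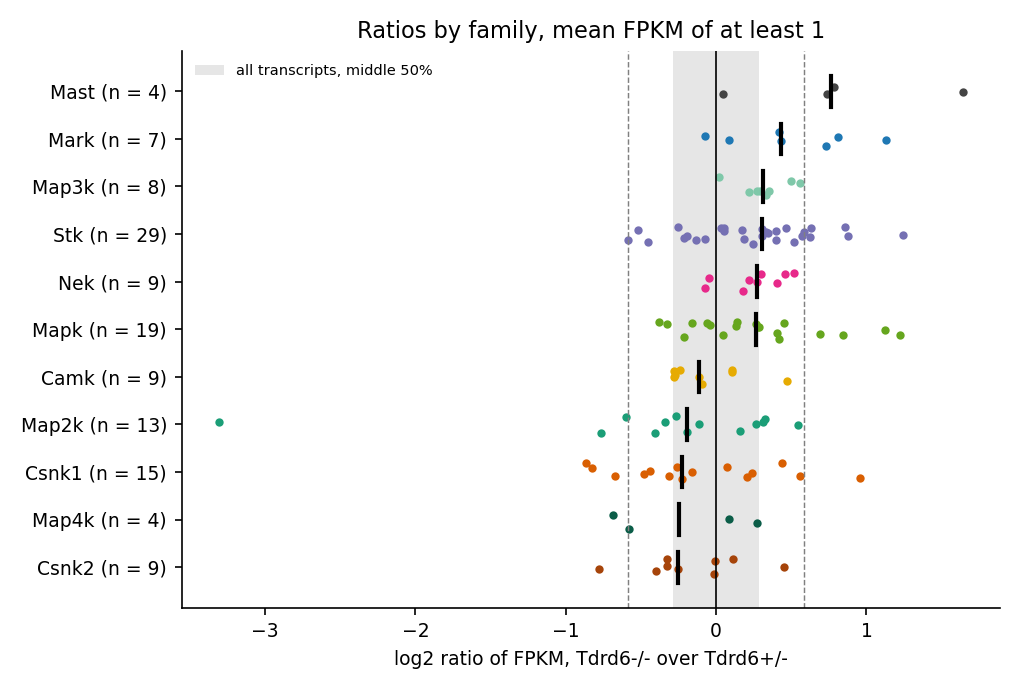
Log2 ratio of FPKM in Tdrd6-/- over Tdrd6+/- on the x axis for the 126 members with a mean FPKM of at least 1, by family. Each point is 1 transcript, black bars are family medians, the grey band is the interquartile range of all 14883 transcripts and dashed lines mark 1.5-fold. Medians run from -0.25 for Csnk2 to 0.76 for Mast, and points of most families lie on both sides of 0.

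In 9 member genes a short and a long 3' UTR transcript both passed the minimum, a comparison added after the values were seen. The most abundant long transcript had the higher log2 ratio in 2 of these genes, Csnk1a1 and Map2k7, and the lower one in 7, Mapk8, Mapk9, Mark2, Nek2, Nek4, Stk38 and Stk4. The median difference of long minus short was -0.17. In Nek2 the difference was only -0.03, and its short class transcript has a 3' UTR of 436 nt in GENCODE M1. In Mark2 and Stk38 the short transcript passed the minimum only through its Tdrd6-/- level, and without these 2 genes the long transcript was the higher in 2 of 7. Over all 420 genes with such a pair, the members included, the long transcript was the higher in 65.7%, with a median difference of 0.18, and in 67.1% of the 383 left when pairs with such a transcript are dropped. In Nek4, for example, the short class ENSMUST00000050171 was at 11.1 FPKM in Tdrd6+/- and 14.7 FPKM in Tdrd6-/-, and the long class ENSMUST00000112124 was at 8.59 and 10.0 FPKM. With 9 genes and no replicate error this count is a description.

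Genes that act with these kinases were taken from lists and each entered with its most abundant transcript. Over all transcripts past the minimum, not restricted to 1 per gene, 8.59% were higher and 9.14% lower by 1.5-fold. Of 22 genes upstream or downstream of MAP kinases, 19 were listed, 15 passed the minimum and 0 were past 1.5-fold, with a median log2 ratio of 0.03. The most abundant were Mknk2 at 12.3 FPKM in Tdrd6+/- and 15.5 FPKM in Tdrd6-/-, Rps6ka4 at 14.7 and 11.9 FPKM, and Mknk1 at 10.2 and 8.31 FPKM, all 3 kinases that ERK or p38 activates. Of 11 genes around calmodulin and CREM 7 passed the minimum and 0 were past the limit, with a median of -0.03. Calm2, a calmodulin gene, was just short of it at 192 and 287 FPKM, Calm3 was at 169 and 153 FPKM, and Crem, the transcription factor of spermatid genes, was at 173 and 117 FPKM. Of 20 partners of LKB1 and Hippo kinases 19 passed the minimum, 1 was higher and 0 lower, with a median of 0.14. The higher one was Lats1, a kinase that MST1 and MST2 activate, at 3.39 and 5.66 FPKM. Strada, the pseudokinase that holds LKB1 active, was at 58.8 and 59.9 FPKM, Sav1, the scaffold of the Hippo kinases, at 50.1 and 55.3 FPKM, and Cab39 at 17.3 and 18.8 FPKM.

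Below a mean FPKM of 1 lay 43 transcripts of 37 genes, and 12 of the 89 genes had no transcript at or above it. Some of these low transcripts had large ratios at levels near 0. Stk19, whose activity as a kinase is disputed, had ENSMUST00000159333 at 0.934 and 0.0243 FPKM beside a main transcript ENSMUST00000077477 at 18.2 and 13.3 FPKM, and Stk30 ENSMUST00000084974 was at 0.849 and 0.120 FPKM. Exons of 19 member genes overlap another annotated gene or share its locus in the files, among them Camk4, Csnk1d, Csnk2b, Stk33, Stk25 and Map2k7. Of those named, all but Map2k7 overlap a gene on the opposite strand. The methods name a directional library kit, but the sources used here do not state whether counting used strand. Reads from such stretches may therefore count for either gene.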

How the data were processed

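RNA from hCD4-enriched testis cells of 4 Tdrd6+/- and 4 Tdrd6-/- mice was sequenced. The methods describe removal of ribosomal RNA and the sample labels describe poly-dT selection. Reads were aligned to mm9 with TopHat2 (version 2.0.9) over Bowtie2 (2.10), and transcripts were assembled with Cufflinks (2.1.1), as the processing notes of the submitters list them. The FPKM values were made by the authors with Cuffdiff and deposited as 1 value per genotype in 3 tables by 3' UTR length. The tables also hold the authors' own log2 fold change, test statistic, p-value and q-value, which were not used. Depth per library was not used here and the precision of an FPKM is unknown.

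Each transcript was kept once, and the log2 ratio of Tdrd6-/- over Tdrd6+/- was taken without a pseudocount at a mean FPKM of at least 1 (Python 3.11.15, numpy 2.4.6, pandas 2.3.3, SciPy 1.17.1, matplotlib 3.10.9). The ratio, minimum and fold steps were run on simulated data with known changes and little noise. That run checks the steps only and gives no rate of false calls in these data. With 1 pooled value per genotype no test was made. Lengths, reading frames and coordinates came from GENCODE M1 (mm9), which held 168 of the 169 members. The study used another release, and 152 of 155 members of a single table fell into the same class by the GENCODE 3' UTR.

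Members, lists and the rule for named genes were chosen with earlier results of these data known. Named are members past 1.5-fold, the 10 most abundant, the most abundant of each family, genes with several transcripts, the Csnk2a2 and Camk4 genes with their paralogs, members near the limit and up to 3 partners a list, and further members as examples of their family. Alternatives were a pseudocount, other minimums and folds, 1 transcript per gene, single-table transcripts, kinases alone, centring on the median, and sums per gene, the last added after the data were seen. The values of 1 member gene are not reported here.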

Additional observations from a re-analysis of the deposited data

How the results depend on the processing

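No paired analysis was possible because the tables hold 1 pooled value per genotype, and for the same reason no animal could be left out. The count of members higher and lower by the fold used, 16 and 8 of 126, came to 10 and 5 with a pseudocount of 1, to 42 and 21 with a limit of 25% in place of 1.5-fold and to 5 and 1 at a fold of 2. Over all transcripts those settings called 4.45% and 6.14%, 22.4% and 22.3%, and 2.35% and 2.66%. With 1 transcript per gene 6 of 77 were higher and 2 lower, and the share over all genes at that setting was not computed. With FPKM summed per gene 4 and 2 of 78 were so, against 5.07% and 6.88% of all genes. At a mean FPKM of at least 5 there were 6 and 6 of 75, and with no minimum 24 and 17 of 169. At these last 2 minimums 4.59% and 8.15%, and 11.6% and 11.1%, of all transcripts were called. The median log2 ratio of the members was 0.0466 at a mean FPKM of at least 5. For the short 3' UTR class it was -0.24 at that minimum, -0.22 with 1 transcript per gene and 0.0530 without the genes that are no kinase. Without those genes the median reversed for Camk (0.00450) and for Csnk2 (0.12), which leaves 6 and 3 transcripts. For Map4k it reversed to 0.0886 with no minimum, with a mean FPKM of at least 5 and with 1 transcript per gene, from 3 to 7 transcripts. At a mean FPKM of at least 5 the median was -0.37 for Csnk1, 0.0430 for Mapk and 0.42 for Mast, and with 1 transcript per gene it was -0.10 for Csnk2, -0.0534 for Map2k and 0.0879 for Mapk. A pseudocount of 1 gave 0.29 for Mark and 0.55 for Mast, and no minimum gave 0.17 for Mast and 0.19 for Stk. A pseudocount shrinks the ratios of low transcripts by its construction, and the cause of the other shifts was not tested. Centring on the median of all transcripts moved no count, since that median is 0.00. Of the other 112 recomputed values, counts stayed within 1.5 times and medians within 0.1 of those reported. Of 123 recomputed ratios of single transcripts 105 moved by no more than 0.1. These were recomputed only with a pseudocount of 0.1 or 1 and with centring. A pseudocount cannot change the direction of a ratio and the centring shift was 0.0003, so the direction of called ratios was not tested.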
